A study of Saccharomyces cerevisiae with 37 samples.

Results

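In wild-type budding yeast, 4 libraries taken 45 and 60 min after copper sulfate was added were compared with 5 libraries taken just before it and 5 min after it. These 9 libraries were chosen by strain and time alone, out of 37 in the series. The series used 3′-end sequencing of RNA (Lexogen QuantSeq, which reads the end of each transcript) to follow a wild type and a second strain for 60 min. Both strains are labelled haploid MAT A and BY4741, a common laboratory background. The wild type is labelled WT and strain BMY1051. The other strain, BMY3661, carries GFA1 as a 25x gene array behind the copper-inducible CUP1 promoter and is called the array strain here; its 8 libraries at the same times serve as the comparison. Both of its replicates carry that strain number, but the data columns of replicate 2 carry another number, and nothing says whether they are separate isolates. Cultures of both strains were grown in rich medium (YPD), washed, and kept in copper-free minimal medium for about 2 h. A 0 min sample was then drawn, copper was added, and later samples followed. One note in the labels gives the dose as 500 uM and another gives the same figure in mM, so the unit was not settled.

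Copper is needed as a cofactor by enzymes such as the superoxide dismutase Sod1, and in excess it is toxic. Yeast cells meet such stresses with a general program in which stress, trehalose and glycogen genes are induced while genes for ribosome assembly are repressed, and part of that program is known to be transient. Heat shock proteins refold damaged proteins, sulfur assimilation supplies cysteine for metal-binding peptides, and passage from G1 into S phase turns on genes for DNA synthesis.

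Replicate numbers were read as cultures sampled through the course, from the growth note in the labels. The 4 late libraries therefore come from 2 cultures, and the 5 baseline libraries from 3 cultures, of which the third has 0 min alone. The design has no copper-free culture at the later times, so an effect of copper and one of further time in minimal medium cannot be told apart. Nothing in the labels says that the libraries carry molecular identifiers, so intervals and limits set by counts cover counting error only. The labels of mating type and background held, but both strains share them, so these genes cannot tell the strains apart. STE2, MFA1 and MFA2, transcripts of a cells, were counted in every library, while MF(ALPHA)1 and MF(ALPHA)2, the alpha-factor genes, had 0 counts in all 9. Of the genes that BY4741 is known to lack, URA3 had 0 counts, LEU2 had 2 and MET17 (also called MET15) had 1 over the 9 libraries. SAG1, the remaining alpha-cell marker with more than a few counts, lay at 7.40 to 29.2 CPM (gene counts scaled by each library's total). Summed a-cell markers were at 178 to 393 CPM at baseline and 244 to 327 CPM late. The 8 meiosis genes summed to 71.8 to 83.5 CPM at baseline and 65.7 to 99.5 CPM late.

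One library stood apart. The 0 min library of wild-type replicate 1 held 305028 counts in genes, against 471950 to 887971 in the other 8. Only 36.6% of its listed reads were in genes and 7.48% of its gene counts came from ribosomal protein genes, against 48.5% to 54.6% and 18.6% to 21.2% in the other 4 baseline libraries. The main counts of called genes at 45-60 min are therefore given with all 9 libraries and without this one. The comparisons of 10 to 30 min use all 5 baseline libraries, and some alternative fits were run only with this library included. The late libraries also differed in these measures from the 4 baseline libraries, without overlap: 43.1% to 46.6% of their reads were in genes, 16.7% to 18.0% of gene counts were ribosomal protein, and 1.53% to 2.08% of gene counts came from the mitochondrial genome, against 0.809% to 1.38%. The array strain showed the same order for reads in genes, with 47.1% to 48.2% late and 50.5% to 52.4% at baseline. A fit with the share of reads in genes as a covariate is given below; the part of RNA quality in the results was otherwise not tested.

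Between baseline and 45-60 min, 133 of 4995 genes differed in wild type (2.66%) by edgeR's quasi-likelihood test at a Benjamini-Hochberg adjusted p under 0.05, which is what called means below. Of these, 95 were higher late (1.90%) and 38 were lower (0.761%), and 52 changed by at least 1 on the log2 scale. Without the 0 min library of replicate 1, 931 of 4975 genes were called (18.7%), 476 higher and 455 lower (9.57% and 9.15%). Counts of list members given below as higher or lower are of called genes, to be read beside the shares of the same fit. All 133 genes of the first fit were called in the second with the same sign. The median log2 fold change of all genes tested was -0.03 and -0.02 in the fits. Among the 95 higher genes, the late libraries lay above every baseline library for 69; among the 38 lower genes they lay below all of them for 21. Over all genes tested, the groups did not overlap for 3.52%, or 16.2% without the replicate 1 library. The 133 genes are described first; in the scatter of both fits they lie along the diagonal.

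**Figure D1:**
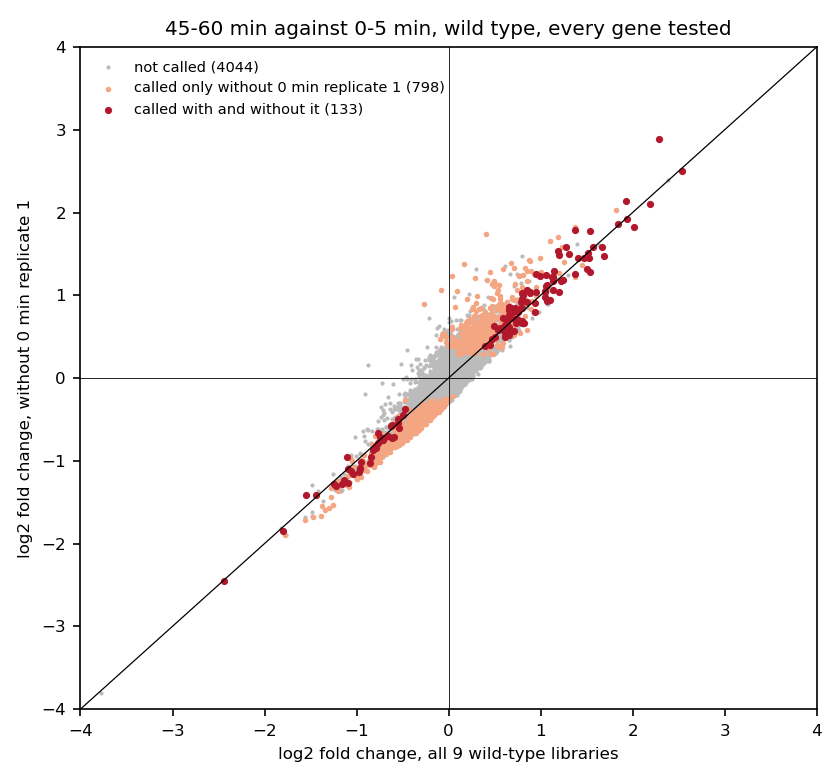
Log2 fold change of each of 4975 genes at 45-60 min against 0-5 min in wild type, with all 9 libraries (x axis) and without the 0 min library of replicate 1 (y axis); dark points are the 133 genes called in both fits and light points the 798 called only without that library. Many light points lie off the diagonal, above it on the higher side and below it on the lower side, which the choice of these genes favours.

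How many of the 133 calls hold depends on how the 2 late cultures are treated and on which libraries are fitted. A fit to the wild-type libraries alone called 52 genes and one to the 9 libraries alone called 7, both with replicate 1 at 0 min included. In the fit to the 9 libraries alone, SSA4 (adjusted p = 0.117), OYE3, ALD3, AAD4 and GSY1 were among the largest changes that were not called. Without any 1 of the 9 libraries, 66 genes kept their call, 51 higher and 15 lower. With culture as a replicate block, which drops the third culture from the contrast, 85 of the 95 and 30 of the 38 remained called. With the libraries of each culture summed first, so that 2 late sums stand against 3 baseline sums, 15 of the 95 and 1 of the 38 remained. With the share of reads in genes as covariate and all libraries, 92 of the 95 and 28 of the 38 remained. Called both in that fit and in the covariate fit without the replicate 1 library were 29 of the 95 and 6 of the 38. Without that library the share did not overlap between the wild-type groups, at 48.5% to 54.6% at baseline and 43.1% to 46.6% late. That fit therefore cannot well separate the share from time. Without every library of culture 1 the comparison called 697 genes, and without those of culture 2 it called 22.

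Of the 12 largest rises, 2 were of chaperone genes, SSA4 and HSP26. SSA4, a stress-induced cytosolic Hsp70 chaperone, was at 359, 73.4, 113, 92.8 and 68.7 CPM at baseline, in the order 0 min replicates 1, 2 and 3 and 5 min replicates 1 and 2 that is kept below. It was at 512, 824, 577 and 714 CPM late, in the order 45 min replicates 1 and 2 and 60 min replicates 1 and 2. All late libraries lay above the baseline, of which replicate 1 at 0 min was the highest. SSA4 rose 4.89-fold (log2 2.29 ± 0.28 SE, adjusted p = 8.97e-06), and 7.42-fold without that library (adjusted p = 1.85e-14). SSA3, another stress-induced Hsp70, rose 2.07-fold, from 58.1 ± 9.14 CPM (SD, n = 5) to 121 ± 22.7 CPM (SD, n = 4; adjusted p = 9.12e-05). HSP26, a small heat shock protein that holds unfolded proteins, was at 2.66, 4.79, 7.40, 4.89 and 4.91 CPM and then at 24.0, 25.1, 17.9 and 33.1 CPM. Its baseline rests on 17 counts in all, and it rose 4.58-fold (adjusted p = 0.000213; 0.000165 without the replicate 1 library). BTN2, which takes part in sorting of aggregated proteins, went from 121 ± 77.7 to 344 ± 65.0 CPM (SD, n = 5 and 4; adjusted p = 0.000834); like some other genes below, it was named after its values had been seen.

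Other chaperones went the opposite way or were not called. HSC82, the constitutive Hsp90, was at 4529.7, 4420.5, 4340.6, 3754 and 3885 CPM and late at 2616, 2467, 2503 and 2431 CPM. The groups stood well apart with little spread late, and HSC82 fell 1.67-fold (log2 -0.74 ± 0.11 SE, adjusted p = 0.000115; 6.11e-08 without the replicate 1 library). Its near-identical copy HSP82 had a log2 difference of -0.18 (adjusted p = 0.783), and reads that could not be assigned to a single place are not in the counts of either. Of 12 genes of the Hsp90 list, HSC82 and CPR6 were called lower in both fits and AHA1 only without the replicate 1 library, and CPR6 was not called under the block (adjusted p = 0.128) or without any of 5 libraries (up to 0.156). SGT2, a co-chaperone for tail-anchored proteins, also fell (log2 -0.84, adjusted p = 0.00161). Of 16 cytosolic Hsp70 and Hsp40 genes, SSA4 and SSA3 were the 2 called with all libraries; 4 of the 16 were above 0 and the median log2 was -0.18. Without the replicate 1 library 3 of the 16 were called higher and 6 lower, among them SSB1, SSB2, SSA1 and SSA2, Hsp70 proteins made in unstressed cells. SSB1 and SSB2 turned sign with all libraries and the share of reads in genes as covariate, to a log2 of 0.93 and 0.58. In the covariate fit without the replicate 1 library, neither was counted as reversed. SSA1 was at 50.5, 557, 199.8, 334 and 671 CPM at baseline and 248, 106, 113 and 103 CPM late, so the groups overlapped and the baseline alone spanned more than the change. Of 9 small heat shock and mitochondrial chaperone genes 1 was called higher, HSP26, and 5 were lower without the replicate 1 library.

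The heat shock element core, TTCNNGAA, was sought on both strands in the 250 bases that end 50 bases before each start codon, in genome R64. It was present in 677 of 5993 such windows (11.3%), in 14 of the 95 windows of higher genes and in 4 of the 38 of lower genes. The window of SSA4 is shown because it belongs to the most strongly called chaperone; capitals mark its 1 match (chrV:364289-364538, plus strand).
SSA4: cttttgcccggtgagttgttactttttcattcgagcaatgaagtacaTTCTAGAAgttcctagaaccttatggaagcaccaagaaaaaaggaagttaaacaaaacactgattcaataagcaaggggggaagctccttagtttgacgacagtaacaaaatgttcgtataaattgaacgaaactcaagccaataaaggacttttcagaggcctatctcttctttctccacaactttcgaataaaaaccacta
No match was found in the windows of SSA3 or HSP26.

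Genes of the G1 to S transition and of DNA synthesis made up many of the higher genes. These 3 lists were drawn up after the called genes had been seen, so their counts only describe which genes are in the result. Of 19 tested regulators of the transition, 7 were called higher and none lower in both fits, with a median log2 of 0.72 (0.75 without the replicate 1 library, with 11 called higher). They were the G1 cyclins CLN1 and CLN2, the cyclin-kinase inhibitor SIC1, the transcription factors SWI4, HCM1 and TOS4, and TOS2, which acts at the bud neck. CLN2 was at 133, 59.1, 48.6, 50.5 and 49.1 CPM and then at 140.5, 174, 185 and 123 CPM. Replicate 1 at 0 min overlapped the late libraries and the other 4 did not. CLN2 rose 2.42-fold (log2 1.27 ± 0.21 SE, adjusted p = 0.00029), and 3.00-fold without that library (adjusted p = 6.11e-08). SWI4, CLN1 and HCM1 were less stable: SWI4 lost its call without 45 min replicate 2 (adjusted p = 0.0593), CLN1 without 60 min replicate 2 (adjusted p = 0.0798), and HCM1 without any of 7 of the libraries (adjusted p up to 0.136) and under the block (adjusted p = 0.0674). Among 11 tested cyclins and inhibitors, CLN1, CLN2 and SIC1 were the 3 called in both fits, and the median log2 was 0.55; without the replicate 1 library 6 were higher.

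Among 53 DNA replication genes, 42 had a log2 fold change above 0. In both fits 8 were called higher and none lower: RAD27, DPB2, CDC9, POL1, POL12, CTF4, CDC45 and TOF1. The list's median log2 was 0.21, and without the replicate 1 library 14 were higher and 1 lower. RAD27, the flap nuclease that trims Okazaki fragments, was at 122, 83.0, 99.4, 109 and 94.9 CPM and late at 236, 203, 201 and 204 CPM. The groups did not overlap, and it rose 2.09-fold (log2 1.07 ± 0.14 SE, adjusted p = 1.62e-05; 9.45e-07 without the replicate 1 library). POL1, the catalytic subunit of the polymerase that starts each new strand, was at 425, 271, 276, 257 and 224 CPM and late at 457, 441, 478 and 439.9 CPM. Its late libraries lay just above replicate 1 at 0 min and far above the rest, for a 1.57-fold rise (adjusted p = 0.0135; 6.27e-05 without that library). DPB2, a subunit of DNA polymerase epsilon, rose 1.92-fold and CDC9, the DNA ligase, 1.73-fold (adjusted p = 0.00158 and 0.00941). POL12 lost its call without 45 min replicate 1 (adjusted p = 0.0718), CTF4 without either late library of replicate 1 (up to 0.0601), TOF1 without 3 libraries (up to 0.188) and CDC45 without 5 (up to 0.0675), and CDC45 was not called under the block (adjusted p = 0.0717). All 12 cohesin and mismatch repair genes tested had a log2 fold change above 0, and 5 were called higher in both fits. Among the 5 were MCD1, SMC3 and IRR1 of the ring that holds sister chromatids together, and MSH6, which recognises mismatches. In the fit without the replicate 1 library 8 were higher and none lower. MCD1 was at 138, 73.4, 59.2, 81.4 and 50.7 CPM and then at 154, 179.8, 159 and 125 CPM, overlapping only through replicate 1 at 0 min. It rose 2.00-fold (adjusted p = 0.00132), and 2.35-fold without that library (adjusted p = 1.94e-06). IRR1 lost its call without any of 5 libraries (up to 0.105). HSL1 and GIN4, kinases of the bud neck, rose 1.81-fold and 1.73-fold (adjusted p = 0.000105 and 0.000931). Histone genes, which are also transcribed in S phase, had a median log2 of -0.25 over 10 genes and no call with all libraries, and 1 higher, HHO1, without the replicate 1 library.

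The MCB element, ACGCGT, which the G1/S factor MBF is known to bind, reads the same on both strands. It was found in 17 of the 95 windows of higher genes (17.9%), in 0 of the 38 windows of lower genes and in 197 of 5993 windows in all (3.29%). All 8 called replication genes had one, as did 4 of the 5 called cohesin and mismatch repair genes. Among the 53 replication genes, the 23 with the element had a median log2 of 0.51 and held all 8 calls, and the 30 without it had a median of 0.09. Over every tested gene with a window, the median was 0.20 for the 176 with the element and -0.04 for the 4733 without. The related SCB element, CGCGAAA, which SBF binds and which can overlap MCB, was in 15 of the 95 (15.8%), 1 of the 38 and 3.84% of all windows. CLN1, CLN2 and SWI4 had no MCB in this window. Both elements were chosen after the called genes had been seen. The windows of RAD27 (chrXI:225926-226175, minus strand), POL1 (chrXIV:429787-430036, plus strand) and MCD1 (chrIV:444383-444632, plus strand) show the element in genes that carry this result; capitals mark ACGCGT.
RAD27: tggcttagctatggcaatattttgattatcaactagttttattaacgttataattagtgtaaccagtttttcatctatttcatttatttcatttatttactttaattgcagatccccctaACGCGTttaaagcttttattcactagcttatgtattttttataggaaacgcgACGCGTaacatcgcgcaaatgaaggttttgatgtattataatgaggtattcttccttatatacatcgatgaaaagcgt
POL1: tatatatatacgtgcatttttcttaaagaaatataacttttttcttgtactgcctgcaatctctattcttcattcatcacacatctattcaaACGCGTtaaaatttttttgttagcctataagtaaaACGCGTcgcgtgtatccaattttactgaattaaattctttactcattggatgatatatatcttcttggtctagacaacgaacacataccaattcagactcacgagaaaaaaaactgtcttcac
MCD1: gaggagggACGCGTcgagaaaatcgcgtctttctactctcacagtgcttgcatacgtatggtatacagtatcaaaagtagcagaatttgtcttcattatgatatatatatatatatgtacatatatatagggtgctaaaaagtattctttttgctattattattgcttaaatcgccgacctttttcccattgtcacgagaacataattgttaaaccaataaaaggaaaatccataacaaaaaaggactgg
RAD27 and POL1 each held 2 matches and MCD1 held 1. Of the cell cycle genes named above, RAD27, CLN2 and MCD1 have their level by library plotted, beside genes of other groups.

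**Figure D2:**
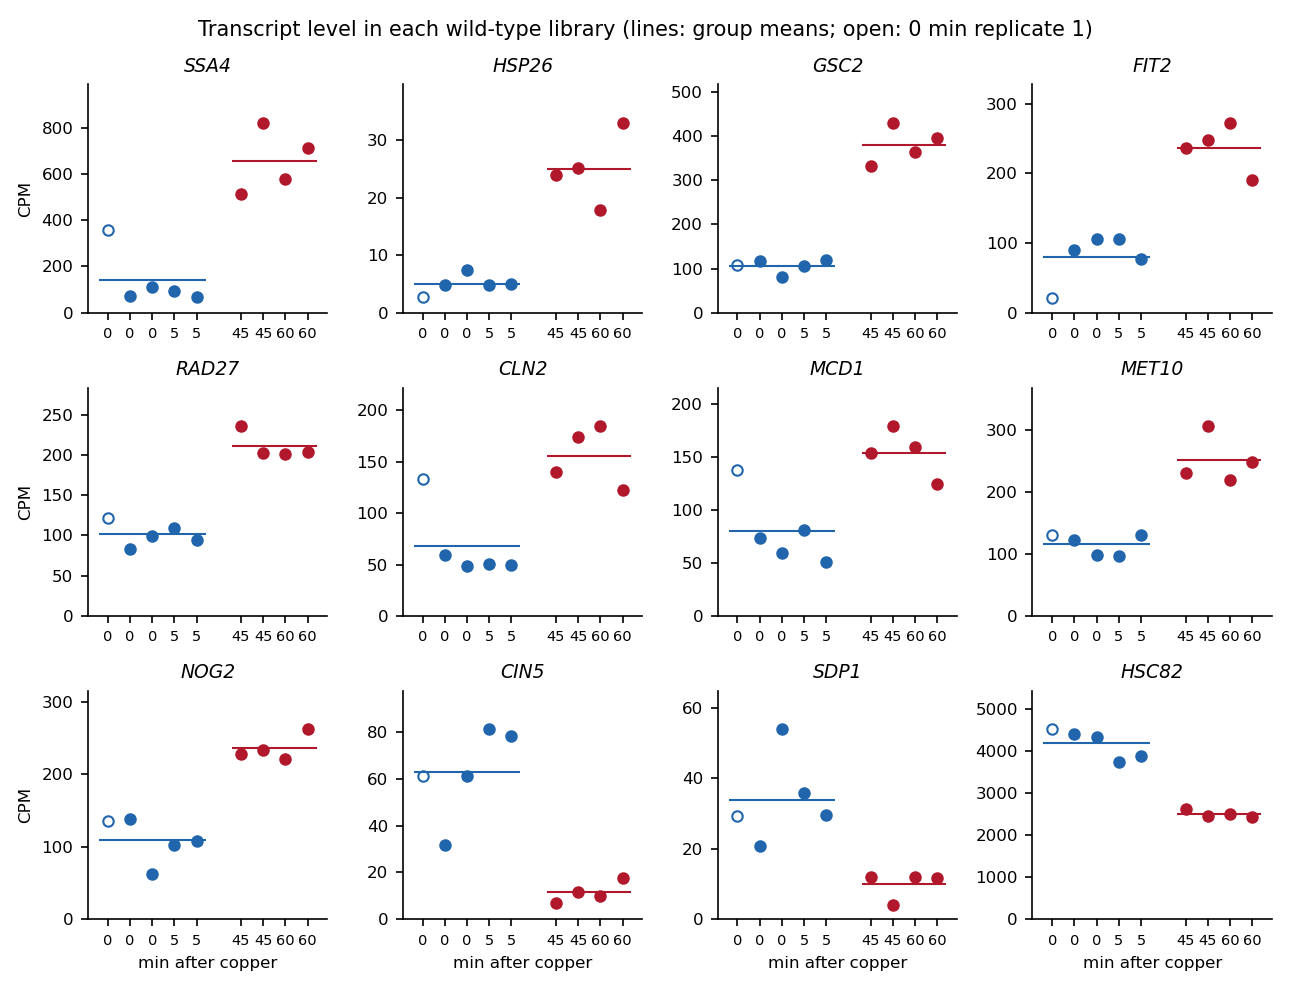
CPM of 12 genes in each of the 9 wild-type libraries (x axis: min after copper; blue, 0 and 5 min; red, 45 and 60 min; lines, group means; open point, 0 min replicate 1). Within each time the points are in replicate order. In GSC2, HSP26, RAD27, MET10, NOG2, CIN5, SDP1 and HSC82 the colours do not overlap, while in CLN2 and MCD1 the open point does.

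Of 10 cell separation genes tested, 7 had a log2 fold change above 0 and 4 were called higher in both fits, DSE1, DSE3, DSE4 and SCW11, which are expressed in daughter cells or act on the wall between mother and daughter, and the median log2 was 0.65 (0.54 without the replicate 1 library, with 6 called higher and none lower). DSE4, a glucanase, went from 189 ± 29.1 to 316 ± 55.2 CPM (SD, n = 5 and 4; adjusted p = 0.00182). DSE1 lost its call under the block (adjusted p = 0.0586) and without any of 5 libraries, and SCW11 without any of 6 (up to 0.328). The chitin synthase CHS1, which repairs the wall at division, rose 1.69-fold (adjusted p = 0.00409), while CHS2, which builds the division septum, had the opposite sign (log2 -0.62) and lost its call without any of 5 libraries (up to 0.157). These were the 2 calls among 11 hexosamine and chitin genes; without the replicate 1 library 2 were higher and 1 lower. GFA1, the first enzyme of that route and the gene multiplied in the array strain, was at 169.9 ± 113 CPM at baseline and 178 ± 34.0 CPM late in wild type (adjusted p = 0.931), with a baseline running from 32.8 to 343 CPM.

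GSC2, the glucan synthase subunit that is induced by cell wall stress, had the smallest p-value of the comparison with all libraries. It was at 109, 117, 81.4, 106 and 119 CPM and then at 332, 431, 364 and 395 CPM, with no overlap and with replicate 1 at 0 min in the middle of the baseline. It rose 3.59-fold (log2 1.85 ± 0.14 SE, adjusted p = 2.79e-10; 5.93e-11 without the replicate 1 library), and it was called under every treatment of the cultures above (adjusted p = 0.00173 for sums per culture). Of 18 glucan synthase and cell wall integrity genes, GSC2 and SWI4 were higher in both fits and ROM1, an activator of the GTPase Rho1, was lower (log2 -1.11, adjusted p = 0.00342). The list's median log2 was 0.05, and without the replicate 1 library 3 were higher and 5 lower. SPS100, a spore wall protein gene also induced in other conditions, rose 5.78-fold from 3.34 ± 1.62 to 19.6 ± 6.41 CPM (adjusted p = 0.00165), on 10 counts at baseline. It and NCW2 were the 2 calls among 25 structural wall genes, whose median log2 was -0.07, with 4 higher and 5 lower without the replicate 1 library. NCW2 lost its call without any of 5 libraries (up to 0.221).

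Sulfur assimilation was the list with the highest median, at a log2 of 0.74 over 21 genes (0.92 without the replicate 1 library). Of the 21, 6 were called higher and none lower in both fits, and 12 were called higher without that library. BY4741 is known to lack MET15, whose product joins sulfide to the carbon chain of homocysteine, and the near absence of its transcript was seen here. MET10, a subunit of sulfite reductase, was at 130.2, 123, 98.3, 96.1 and 131 CPM and late at 231, 307, 219 and 249 CPM. The groups were far apart, and MET10 rose 2.19-fold (log2 1.13 ± 0.16 SE, adjusted p = 7.22e-05; 1.24e-05 without the replicate 1 library). MET16, which reduces activated sulfate, was at 34.6, 41.5, 72.9, 39.1 and 44.2 CPM and then at 85.7, 114, 115 and 113 CPM, a 2.20-fold rise (adjusted p = 0.00127). MET1, needed for the siroheme cofactor of sulfite reductase, rose 2.36-fold and SUL2, a sulfate permease, 2.22-fold (adjusted p = 0.000115 and 0.00479). The remaining calls, the methionine permease MUP1 and the transcription factor MET32, were lost without any of 4 libraries (up to 0.194) and any of 5 (up to 0.0797). SAM3 and MET6 were among the genes called only without the replicate 1 library. The sequence CACGTG, to which Cbf1 is known to bind, lay in 3 of the 6 windows, in 9 of all 25 on the list and in 3.27% of all windows. The window of MET16 is shown for its match, in capitals (chrXVI:877683-877932, minus strand).
MET16: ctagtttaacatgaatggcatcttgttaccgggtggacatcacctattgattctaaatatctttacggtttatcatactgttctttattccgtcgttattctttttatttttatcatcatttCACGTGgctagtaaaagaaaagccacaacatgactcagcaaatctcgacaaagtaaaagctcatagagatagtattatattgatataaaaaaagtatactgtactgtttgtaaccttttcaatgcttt

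Metal genes changed at a few points. Of 12 tested copper genes none was called with all libraries, and 1, the superoxide dismutase SOD1, was higher without the replicate 1 library (log2 0.30, adjusted p = 0.028). SOD1 was at 3656 ± 589 CPM at baseline and 4733 ± 388 CPM late, and the groups overlapped. CRS5, a metallothionein, was at 43.3 ± 23.6 and 52.7 ± 9.94 CPM (adjusted p = 0.792). The identical metallothionein copies CUP1-1 and CUP1-2 had 0 counts in every library. A count of 0 allows up to 3.38 to 9.84 CPM in a baseline library, and reads aligned at several places, which are listed apart from the genes, made up 6.17% to 12.8% of reads over the 9 libraries; CUP1 was therefore not measured. Zinc uptake was called: ZRT2, the low-affinity transporter, went from 186 ± 50.1 to 397 ± 32.2 CPM (SD, n = 5 and 4; 2.10-fold, adjusted p = 2.65e-05). ZRT1, the high-affinity transporter, was at 5.32, 145, 85.6, 161 and 221 CPM and then at 365, 305, 376 and 424 CPM. It rose 2.91-fold by its fit (log2 1.54, adjusted p = 0.0315), with replicate 1 at 0 min far below the rest, and lost the call without any of 5 libraries (up to 0.0871). No other of 11 zinc genes was called, and their median log2 was -0.08. Of 19 iron genes 3 were higher, the cell wall proteins FIT2 and FIT3, which hold siderophores, and the siderophore transporter ARN2; without the replicate 1 library 4 were higher and 1 lower. FIT2 was at 21.3, 89.4, 106, 106 and 76.9 CPM and then at 236, 247, 273 and 191 CPM, a 2.84-fold rise (adjusted p = 0.000214; 3.33e-05 without the replicate 1 library). ARN2 lost its call under the block (adjusted p = 0.075) and without any of the 8 libraries other than replicate 1 at 0 min, and FIT3 without 45 min replicate 1 (adjusted p = 0.102).

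Few ribosome assembly genes were called with all libraries. Of 51 small-subunit assembly genes, 41 had a log2 fold change above 0, the median was 0.23, and UTP9 and UTP21 were called higher in both fits. Of 61 large-subunit genes, 52 were above 0, the median was 0.21, and NOG2 and REI1 were called. Over all 4995 genes tested, 45.8% were above 0. The summed level of the small-subunit list overlapped, at 11237 to 16689 CPM at baseline and 12097 to 16713 CPM late, as did that of the large-subunit list. In the array strain the medians were 0.04 and 0.05. Without the replicate 1 library, 22 and 19 were called higher and none lower, and the medians were 0.33 and 0.30. NOG2, a GTPase that acts on the pre-60S particle, was at 136, 139, 62.4, 103 and 108 CPM and late at 228, 234, 221 and 263 CPM, a 2.20-fold rise without overlap (adjusted p = 8.63e-05; 5.27e-06 without the replicate 1 library). REI1, which helps recycle a factor from the large subunit, rose 1.93-fold and UTP9 1.55-fold (adjusted p = 0.000843 and 0.00661). UTP21 lost its call under the block (adjusted p = 0.0609) and without any of 7 libraries. TOD6, a known repressor of this gene group, was itself at 9.03 ± 2.57 CPM and then 25.8 ± 7.66 CPM (log2 1.52, adjusted p = 0.0172), and lost its call without any of 3 libraries (up to 0.096). RNA polymerase I genes had a median of 0.24 over 7 genes with no call, or 1, RPA34, without the replicate 1 library. Of 137 ribosomal protein genes, only RPL22B was called, higher, and the median was -0.10. Without the replicate 1 library 56 of them were lower and 3 higher, with a median of -0.30. Some of these turned sign with all libraries and the share of reads in genes as covariate, RPL12B to a log2 of 0.74, RPS28A to 0.90 and RPL29 to 1.02. None of them was counted as reversed in the covariate fit without the replicate 1 library. That library held the smallest share of ribosomal protein RNA of the 9, as given above. RPL22B lost its call without 45 min replicate 1 (adjusted p = 0.054).

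All 4 called assembly genes held both the PAC core, GATGAG, and the RRPE core, AAAATTT, in their windows, as do most genes of these lists: 46 of 51 and 51 of 60 held the first, and 45 and 58 the second, against 17.8% and 22.2% of all windows. The window of NOG2 shows the pair (chrXIV:723163-723412, minus strand); capitals mark both, the PAC core as CTCATC and each AAAATTTT holding 2 overlapping RRPE matches, 1 on either strand.
NOG2: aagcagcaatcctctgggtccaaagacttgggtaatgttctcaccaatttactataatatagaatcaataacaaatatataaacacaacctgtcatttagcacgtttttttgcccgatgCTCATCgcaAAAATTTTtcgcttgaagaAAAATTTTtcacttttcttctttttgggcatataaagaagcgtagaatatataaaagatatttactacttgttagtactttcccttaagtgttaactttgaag

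Some of the largest rises, though not that of ALD3, were of genes with low counts. OYE3, an NADPH dehydrogenase of the old yellow enzyme family, had no count in replicate 1 at 0 min and was at 8.18 to 16.0 CPM in the other baseline libraries, against 31.9 to 49.7 CPM late (log2 2.02 ± 0.32 SE, adjusted p = 0.000214). It was the 1 call among 21 peroxide and thiol defence genes, whose median log2 was -0.01. Without the replicate 1 library 2 of the 21 were called higher and 6 lower, among the latter TRX1, TRX2 and TSA1. HBN1, a protein similar to bacterial nitroreductases, went from 11.1 ± 3.54 to 44.6 ± 8.47 CPM (adjusted p = 0.000105). AAD4, a putative aryl-alcohol dehydrogenase with several close relatives in the genome, went from 8.78 ± 4.27 to 32.1 ± 8.59 CPM (adjusted p = 0.00171). RFU1, an inhibitor of the deubiquitinase Doa4, rose 3.18-fold (adjusted p = 0.000418). The aldehyde dehydrogenase ALD3 was at 5.32, 25.5, 69.8, 50.5 and 85.1 CPM and late at 137, 209, 121 and 185 CPM, a 3.22-fold rise (adjusted p = 0.00029). SPS18 rose by 1.54 on the log2 scale (adjusted p = 0.0225) with overlapping groups; the call was lost under the block (adjusted p = 0.0708) and without any of 4 libraries (up to 0.124).

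The 12 largest falls were of genes with various roles. CIN5, a basic leucine zipper factor of the Yap family, was at 61.1, 31.9, 61.3, 81.4 and 78.5 CPM and then at 6.85, 11.6, 9.95 and 17.5 CPM. The lowest baseline library was well above the highest late one, and CIN5 fell 5.44-fold (log2 -2.44 ± 0.36 SE, adjusted p = 9.12e-05; 3.33e-05 without the replicate 1 library). It was the 1 lower gene called with sums per culture (adjusted p = 0.00936). SDP1, a phosphatase of the cell wall MAP kinase Slt2, was at 29.2, 20.8, 53.9, 35.8 and 29.4 CPM and then at 12.0, 3.87, 11.9 and 11.7 CPM, a 3.48-fold fall (adjusted p = 0.00216). GSY1, a glycogen synthase, was at 58.5, 28.7, 47.6, 74.9 and 70.3 CPM and then at 17.1, 23.2, 21.9 and 19.5 CPM, a 2.71-fold fall (adjusted p = 0.00182). GSY1 and the branching enzyme GLC3 were the 2 lower calls among 11 glycogen genes, whose median log2 was -0.35, with 4 lower without the replicate 1 library. GLC3 lost its call without any of 6 libraries (up to 0.121). All 7 trehalose genes had a negative log2 fold change, with a median of -0.38, and none was called in either fit.

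HEM13, the oxygen-dependent coproporphyrinogen oxidase of heme synthesis, fell 2.33-fold, from 54.1 ± 17.0 to 23.3 ± 8.08 CPM (SD, n = 5 and 4; adjusted p = 0.00355). BDH2, a butanediol dehydrogenase homologue, fell 2.37-fold and HST3, a deacetylase of the sirtuin family, 2.13-fold (adjusted p = 0.00822 and 0.00132). CAR1, the arginase, and LEU1 of leucine synthesis fell 1.95-fold and 1.73-fold (adjusted p = 0.000532 and 0.00143). LEU1 was the lower and SNZ1, of vitamin B6 synthesis, the higher of 2 calls among 41 amino acid synthesis genes; without the replicate 1 library 1 was higher and 6 lower. The maltose permease MAL31, the polyamine transporter TPO3, the ubiquitin ligase adaptor GID11, the actin-monomer binding TWF1 and the uncharacterised YBL029C-A complete the largest falls, with log2 fold changes of -1.55, -1.15, -1.14, -1.06 and -1.10. Each of these lost its call without at least 2 of the libraries (adjusted p up to 0.202), and TWF1 and YBL029C-A also under the block (adjusted p = 0.0853 and 0.0646). The stress response element AGGGG, which Msn2 and Msn4 are known to bind, was in 14 of the 38 windows of lower genes (36.8%), in 13 of the 95 of higher genes (13.7%) and in 19.2% of all windows on either strand. SDP1 is shown as a falling gene with 2 such matches, which read CCCCT in the printed strand (chrIX:150259-150508, plus strand).
SDP1: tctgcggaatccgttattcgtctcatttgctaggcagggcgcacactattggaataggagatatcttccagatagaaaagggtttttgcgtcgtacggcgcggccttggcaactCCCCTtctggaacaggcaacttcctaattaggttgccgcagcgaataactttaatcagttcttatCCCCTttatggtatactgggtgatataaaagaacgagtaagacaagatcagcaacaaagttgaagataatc

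The general stress list held 1 higher gene, ALD3, and 1 lower, SDP1, of 21 tested, and its median log2 was -0.08 (-0.23 without the replicate 1 library, with 1 higher and 5 lower). In the remaining lists 1 gene or none was called with all libraries. LHS1 was the 1 call among 13 genes of folding in the endoplasmic reticulum (median -0.05) and lost it without any of 4 libraries (up to 0.0891). None was called among 33 proteasome genes (-0.08), 17 of glycolysis (-0.10), 14 of hexose uptake (-0.44), 40 of respiration (-0.16), 23 of sterol synthesis (-0.24), 15 of phosphate uptake (0.07), 13 of the pheromone pathway (-0.01) or 19 of mRNA packaging and export (0.00). The 7 a-cell markers (0.02), 2 tested meiosis genes (0.03), 1 tested alpha-cell marker (0.49) and 4 tested genes of the mitochondrial genome (-0.56) had none either. Without the replicate 1 library, 9.57% of all genes tested were called higher and 9.15% lower. In that fit hexose uptake had 4 lower, glycolysis 3 lower and 1 higher, respiration 6 lower and 1 higher, and sterol synthesis 3 lower. Phosphate uptake then had 3 higher and 1 lower, the proteasome 1 higher and 2 lower, mRNA export 2 higher and 1 lower, the pheromone pathway 2 lower, folding in the endoplasmic reticulum 3 higher, and a-cell markers 1 each way.

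**Figure D3:**
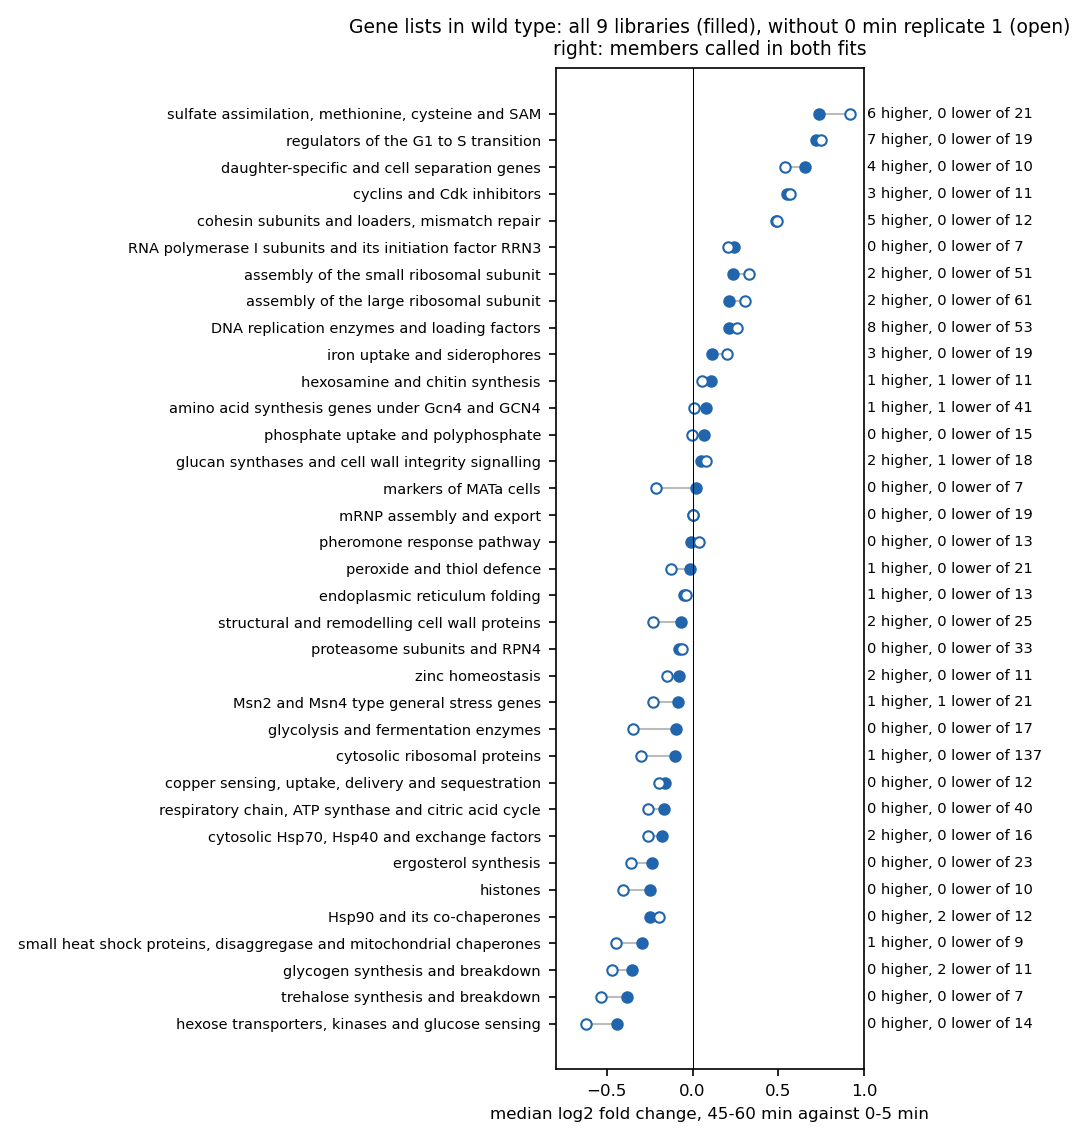
Median log2 fold change of each gene list with at least 5 tested members at 45-60 min against 0-5 min in wild type, with all 9 libraries (filled) and without the 0 min library of replicate 1 (open); the text at the right gives the members called in both fits. Sulfur genes (0.74) and G1 to S regulators (0.72) lie at the top, and hexose uptake (-0.44) and trehalose (-0.38) at the bottom.

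The genes called only without the 0 min library of replicate 1 were 798, of which 381 were higher and 417 lower late. In that library, 327 of the 381 had their highest baseline value and 390 of the 417 their lowest, against 37.8% and 39.7% of all genes tested. With all libraries the same genes had median log2 fold changes of 0.36 and -0.42, and without it 0.60 and -0.61. These shares and medians are largely set by the choice of the genes, which were called only with that library left out. With the share of reads in genes as covariate and that library left out, 2 of the 381 and 1 of the 417 were still called, and with sums per culture none of either. SPT21, a regulator of histone genes, illustrates the higher ones: it was at 82.4 CPM in that library, at 19.3 CPM on average in the other 4 baseline libraries and at 60.0 CPM late (log2 1.66, adjusted p = 0.000315; with all libraries 1.10 and 0.106). The telomerase subunit EST2 (log2 1.83), the small nucleolar RNA SNR85 (1.74), OTO1 (1.70) and TEP1 (1.59) were the other large rises of this kind. EST2 rests on 17 counts at baseline and 31 late. Its groups overlapped also without that library, with 3.89 CPM at 60 min in replicate 2 against 8.14 CPM at 5 min in replicate 1. Among the falls, the wall protein CWP2 was at 125 CPM in that library, 1604 CPM on average in the other 4 and 499 CPM late (log2 -1.67, adjusted p = 0.044). CYC7 (log2 -1.89), SOH1 (-1.72), NUP42 (-1.67) and SSA1 (-1.60) completed them. Leaving out that library is 1 of 9 possible omissions, and the other 8 gave between 93 and 144 called genes.

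The same wild-type baseline was also set against each earlier time, so the following values share their control libraries with the late comparison and are placed side by side only. General stress genes had a median log2 of 0.95 at 20 min and 1.12 at 30 min, with 4 and 8 of 21 called higher, and -0.08 at 45-60 min. Over all genes, 0.641% were called higher and 1.06% lower at 15 min, 1.00% and 1.56% at 20 min, 1.60% and 1.78% at 25 min, and 2.02% and 2.18% at 30 min. Glycogen genes stood at 0.83, 0.75 and -0.35, and trehalose genes at 0.66, 0.63 and -0.38. Small-subunit assembly genes stood at -0.68, -0.67 and 0.23, with 19 and 20 of 51 called lower at 20 and 30 min, and large-subunit genes at -0.76, -0.74 and 0.21, with 22 and 29 of 61 called lower. Sulfur genes stood at 0.44, 0.84 and 0.74, with 0 and 8 of 21 called higher at 20 and 30 min. The G1 to S regulators stood at 0.12, 0.30 and 0.72, the replication genes at -0.06, 0.05 and 0.21, and the cohesin and mismatch repair genes at -0.17, 0.04 and 0.49. The earlier times were not compared without replicate 1 at 0 min. In that library general stress genes summed to 845 CPM, against 2101 to 2482 CPM in the other baseline libraries. Small-subunit genes summed to 16689 against 11237 to 12953 CPM, and large-subunit genes to 23010 against 13753 to 16314 CPM. How far such levels enter the early values of these lists was not tested. Trehalose genes, unlike general stress genes, were highest in that library, at 1260 against 700 to 1142 CPM, and glycogen genes lay within the range.

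**Figure D4:**
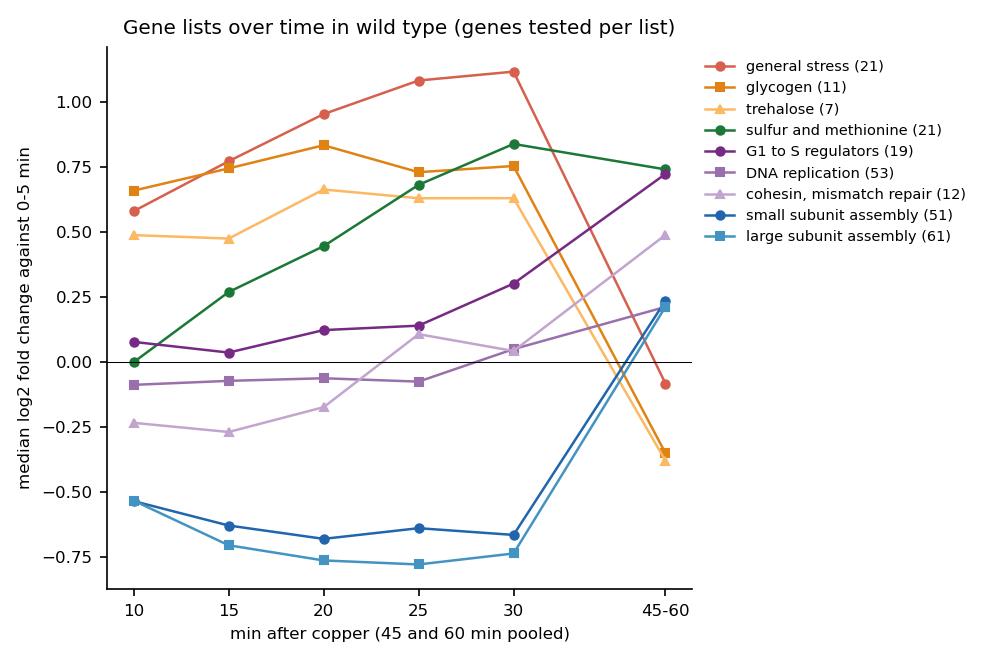
Median log2 fold change of 9 gene lists against 0-5 min in wild type (y axis) at 10 to 30 min and at 45-60 min pooled (x axis, not to scale after 30 min); the number of tested genes is in the key. All points share the same 5 baseline libraries, replicate 1 at 0 min among them. General stress, glycogen and trehalose genes are above 0 up to 30 min and below it late, and the assembly genes the reverse.

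Single genes are set side by side in the same way. SSA4 had log2 fold changes of 0.13 at 20 min, 1.75 at 30 min and 2.29 at 45-60 min, and HSP26 of 1.16, 2.30 and 2.19. GSC2 stood at 1.18, 1.68 and 1.85, and SPS100 at 2.50, 2.65 and 2.53. RAD27 stood at -0.16, 0.32 and 1.07, and CLN2 at -0.01, 0.60 and 1.27. CIN5 stood at -0.94, -1.85 and -2.44, whereas GSY1 stood at 0.83, 0.43 and -1.44. As a group, the 95 higher genes had medians of -0.06, -0.03, 0.12, 0.28 and 0.44 at 10, 15, 20, 25 and 30 min and 0.86 at 45-60 min. The 38 lower genes had 0.10, 0.04, -0.10, -0.12 and -0.25, and -0.83 at 45-60 min; these late medians are fixed by the choice of the genes.

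Within the pooled groups, no gene was called between 60 and 45 min (0.00%; 142 had an unadjusted p under 0.05, and voom called 0). DESeq2 called 1, as did edgeR without the replicate 1 library: SIT1, a siderophore transporter, which was lower at 60 min (log2 -1.47, adjusted p = 0.0122 with DESeq2). No gene was called between 5 and 0 min (0.00%; 553 had an unadjusted p under 0.05), where DESeq2 called SNR43 and HSP82 and voom called 0. Without the 0 min library of replicate 2, however, 256 genes were called between 5 and 0 min, which leaves replicates 1 and 3 at 0 min.

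The array strain gives the same contrast with no library in common. There 32 genes were called (0.641%), 23 higher (0.460%) and 9 lower (0.180%). Without the wild-type replicate 1 library, which enters through the shared estimate of spread, 99 were called (1.99%), 64 higher (1.29%) and 35 lower (0.704%). With culture as a block 58 were called. Fitted to its own compared libraries alone, the array strain had 382 called genes, and wild type had 7. Which strain had more calls thus differed between the fits. The wild-type fit that called 7 genes includes replicate 1 at 0 min and was not repeated without it, so the reason was not tested. Of the 32, 24 were among the 133 wild-type genes with the same sign, which is 75.0% of the array list and 18.0% of the wild-type list. Of the 95 higher wild-type genes 91 had a positive log2 fold change in the array strain, and of the 38 lower genes 33 had a negative one, against 66.8% of all genes with the same sign in both strains. Median log2 fold changes there were 0.51 for sulfur genes, 0.59 for G1 to S regulators and 0.46 for cell separation genes. Cohesin and mismatch repair genes stood at 0.36, replication genes at 0.22, and the 2 assembly lists at 0.04 and 0.05. GSC2 was at 88.9 ± 16.5 CPM at baseline and 266 ± 22.9 CPM late in the array strain (SD, n = 4 each; log2 1.58, adjusted p = 1.48e-07). CLN2, MCD1 and RAD27 had log2 fold changes of 1.04, 1.01 and 0.74 there and HEM13 -1.20 (adjusted p = 0.00526 for each), while SPS100 had 0.13, HSP26 0.56 and OYE3 0.64 and were not called.

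The difference between the strains was tested directly, as an interaction. No gene was called with all libraries (0.00%; 151 had an unadjusted p under 0.05, and DESeq2 and voom called 0). Without the wild-type replicate 1 library 1 was called (0.0201%), OPI3, which makes phosphatidylcholine. In wild type OPI3 was at 186, 619, 525, 507 and 566 CPM and late at 576, 516, 464 and 543 CPM, so apart from replicate 1 at 0 min the groups overlapped. In the array strain it fell from 894 ± 183 CPM to 415 ± 54.1 CPM (SD, n = 4 each; log2 -1.11, adjusted p = 0.00526). The difference in log2 fold change, wild type minus array strain, was 1.03 without the replicate 1 library (adjusted p = 0.0189) and 1.22 with it (adjusted p = 0.843). With culture as a block GFA1 itself was called for the difference (log2 -2.17, adjusted p = 0.00397), while with sums per culture no gene was. Under the block without the replicate 1 library 5 genes were called, with adjusted p up to 0.0358. They were GFA1 (log2 -1.83), OPI3 (1.01), SSA4 (1.21), BTN2 (1.33) and HSP82 (0.93). With all libraries and the share of reads in genes as covariate, OPI3 and GFA1 were called (log2 1.30 and -1.73, adjusted p = 0.000439 and 0.0164). GFA1 was at 2504 ± 740.1 CPM and then 9978 ± 2160 CPM in the array strain (SD, n = 4 each). SPS100, HSP26 and OYE3 were not called for the difference, with an adjusted p of 0.49 for each without the replicate 1 library and 1.00 with all libraries.

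**Figure D5:**
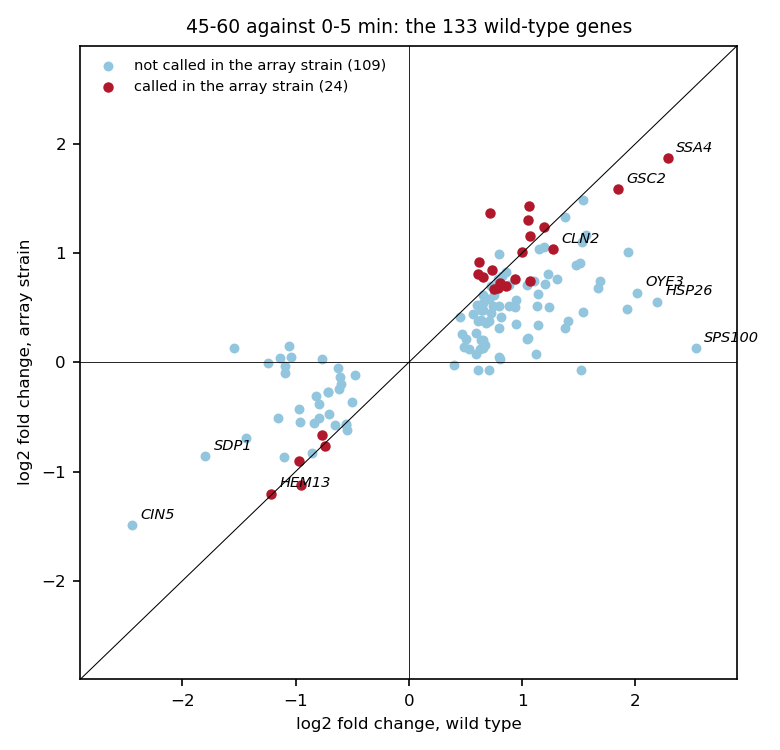
Log2 fold change at 45-60 min against 0-5 min of the 133 genes called in wild type (x axis) and in the array strain (y axis); red points are the 24 genes also called in the array strain. Most points lie in the quadrants of equal sign and nearer to 0 in the array strain; the wild-type values were selected for their size, the array values were not.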

How the data were processed

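The deposited table holds raw counts per gene, made by the authors with STAR 2.7.10a, SAMtools 1.10 and HTSeq 2.0.2 on genome R64 after FastQC 0.11.9, per the submitters' processing notes; 5 summary lines, 45.4% to 63.4% of the reads of the 9 libraries, were left out. Gene counts were 305028 to 887971 per library. edgeR 4.0.16 (TMM, quasi-likelihood test, limma 3.58.1, R 4.3.3) was fitted to all 37 libraries in 14 groups that pool 0 with 5 min and 45 with 60 min; 4995 of 6464 genes passed filterByExpr at a minimum count of 10. A gene was called where its p, adjusted by Benjamini and Hochberg's method, was under 0.05. DESeq2 1.42.0 and voom were alternatives.

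The 12 largest rises and falls of at least 10 CPM called in both fits, the 5 largest of those called only without the replicate 1 library, and list members are named; other genes, among them RAD27, POL1, MCD1, TOS4, HSL1, GIN4, TOD6, SGT2, SIT1 and OPI3, were named after their values were seen. The values of 1 called gene are not reported here. The comparison, lists and members were chosen with earlier results of these data known. Promoter windows were read from R64, 300 to 51 bases before each start codon, since no table of promoters was used here.

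Replicate numbers were read as cultures from the growth note, not from each sample's label, and taken to pair the samples. The deviations of same-numbered wild-type libraries correlated at a median r of 0.09 over 36 pairs of times (-0.39 to 0.57), and between baseline and late times at -0.04 over 4 pairs (-0.36 to 0.24).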

Additional observations from a re-analysis of the deposited data

Results flagged for a closer look

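In 5 cases 1 library lay far from the rest of its group by Dixon's test; chance flags about 1 in 20 groups, and 70 were tested. The 0 min library of wild-type replicate 1 was the far one in 3 of them. It had 358.9 CPM of SSA4 against 68.7 to 113 CPM in the other baseline libraries, 13.29 CPM of SPS18 against 4.23 to 6.52 CPM, and 7.48% of gene counts in ribosomal protein genes against 18.6% to 21.2%. In the late group, SDP1 was at 3.867 CPM at 45 min in replicate 2 against 11.7 to 12.0 CPM, and CRS5 was at 37.83 CPM at 60 min in replicate 1 against 56.5 to 58.4 CPM.

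The change of OPI3 differed between the strains by 1.03 on the log2 scale by the interaction test without the replicate 1 library (edgeR adjusted p = 0.0189).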

How the results depend on the processing

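Against 133 wild-type genes called, 931 were called without the 0 min library of replicate 1, and leaving out single libraries or a culture gave 22 to 931. The count was 88 with 0 min alone as baseline, 79 with 45 min alone, 53 with 60 min alone, 52 from wild-type libraries only, 7 from the 9 libraries only and 16 with sums per culture. Each of these fits included the replicate 1 library. With the share of reads in genes as covariate it was 462, or 44 without the replicate 1 library. DESeq2 called 138 and voom 166. Under that covariate with all libraries, 7 of 140 named genes were counted as reversed in sign. RPL12B was at 0.74, RPS28A at 0.90, RPL29 at 1.02, SSB2 at 0.58, SSB1 at 0.93, GPM1 at 0.93 and TDH2 at 0.55 on the log2 scale. In the covariate fit without the replicate 1 library, 0 of the 140 were counted as reversed. The cause was not tested.

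With culture as a replicate block the wild-type count was 168, and 852 without the replicate 1 library. The array count of 32 became 58 and 219 under the block, and for the difference between strains 1 and 5 genes were called in place of 0. The block changed no other count by over 1.5 times.

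For the array strain the count was 13 with 0 min alone, 14 with 5 min alone, 15 with 45 min alone, 19 with 60 min alone, 382 from its own libraries only, 82 with the covariate and 2 with sums per culture, and 21 to 157 with libraries left out. The difference between strains gave 2 genes with the covariate, with or without the replicate 1 library, 0 with sums per culture, and 0 to 1 with libraries left out. Between 60 and 45 min, DESeq2 called 1 gene, the 4 libraries alone 2, the covariate 1, and omissions 0 to 1. Between 5 and 0 min, DESeq2 and the covariate called 2 each, and omissions 0 to 256. Depth limits the low genes: HSP26 and SPS100 rest on 17 and 10 counts at baseline, and SDP1 on 21 late.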
